A study of Sus scrofa with 6 samples.

Results

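The genes described here are the surfactant proteins and the genes of the lamellar body of the pig lung. They were chosen by symbol as SFTPA1, SFTPB, SFTPC, SFTPD, ABCA3, NAPSA, LAMP3, LPCAT1, SLC34A2 and CTSH. Of these 10 genes, 9 were measured among the 14579 mRNAs of the deposited table, and LAMP3 was not analysed here because no identifier was matched to its symbol. Levels are FPKM (fragments per kilobase of transcript, scaled to the mapped reads of the library), which take gene length into account, so that genes can be compared with each other.

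Pulmonary surfactant is a film of phospholipid and protein that lowers the surface tension of the liquid lining the alveoli and keeps them open at the end of each breath. It is made by alveolar type II cells, which store it in lamellar bodies, organelles packed with lipid membranes, and release it by exocytosis. Late gestation is the time at which the lung builds up this store, and the first breaths bring it into use. SFTPB and SFTPC are small hydrophobic proteins of the film, whereas SFTPA1 and SFTPD are collectins, secreted lectins that bind microbes and lipid.

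Whole lung RNA was compared in 6 libraries, 3 in each group. All piglets were female hybrids of a Tibetan sire and a Meishan dam, untreated and without any introduced allele as far as the labels state. The prenatal group held 3 fetuses taken on the last day before birth, each from its own sow, and the neonatal group held 3 piglets from 3 other sows, sampled 2 days after birth. The stage of a piglet therefore cannot be told apart from its sow or from the way it was delivered. Each library is 1 animal, and libraries are named here by group and replicate number, such as Prenatal1.

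The deposited tables hold no read counts, so the depth behind single values is not known from them and the spread among 3 animals is the only error given. The summed FPKM of the mRNAs ran from 339491 to 471220 in the prenatal libraries and from 491548 to 777982 in the neonatal libraries, so the 2 groups did not overlap in this sum. Differences below are neonatal minus prenatal on the log2(FPKM + 1) scale, fitted in limma and adjusted over all mRNAs by the Benjamini-Hochberg method, with an adjusted p of 0.05 or less as the threshold. At that threshold 6.87% of all mRNAs were called, 5.41% higher and 1.45% lower in the neonatal group. Without Prenatal1, Prenatal2, Prenatal3, Neonatal2 or Neonatal3 the 1001 calls became 304, 196, 397, 255 and 308, and without Neonatal1 they became 944. The split of 789 higher and 212 lower calls depended on the scaling between libraries and was 650 to 335 after median-of-ratios scaling, 669 to 486 after quantile normalization, and 306 to 743 when every library was scaled to the same sum.

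None of the 9 measured genes passed the threshold in either direction. That is 0 of 9 beside the 6.87% of all mRNAs, and the lowest adjusted p from limma was 0.151, for SFTPA1. At an unadjusted p under 0.05 limma gave 1 of the 9, beside 24.2% of all mRNAs. No other tool was run. The difference was positive for 7 of the 9, with a median of 0.27 beside a median of 0.13 over all mRNAs. In 3 of the 9 every neonatal library stood above every prenatal library, beside 20.9% of all mRNAs, and in none did every neonatal library stand below, beside 9.64%. Either kind of separation was found for 30.5% of all mRNAs. SFTPA1, among the 3 that stood above and the 1 at an unadjusted p under 0.05, was matched only through the authors' list of differentially expressed mRNAs. Its place in both counts was therefore selected on these same libraries. In a simulated table with the spread of these libraries, the fit called 0 of 200 altered mRNAs where the alteration was 1 in log2 units and 148 of 200 where it was 2. Only 200 mRNAs were altered there, fewer than the 1001 called in these libraries, a setting in which the adjusted threshold is harder to pass. In these libraries some differences smaller than 1 in size were called, such as -0.88 for CHPT1 (limma adjusted p = 0.0263). The simulation therefore does not set the smallest difference that could be called here. All 9 differences of the members were smaller than 1.

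**Figure D1:**
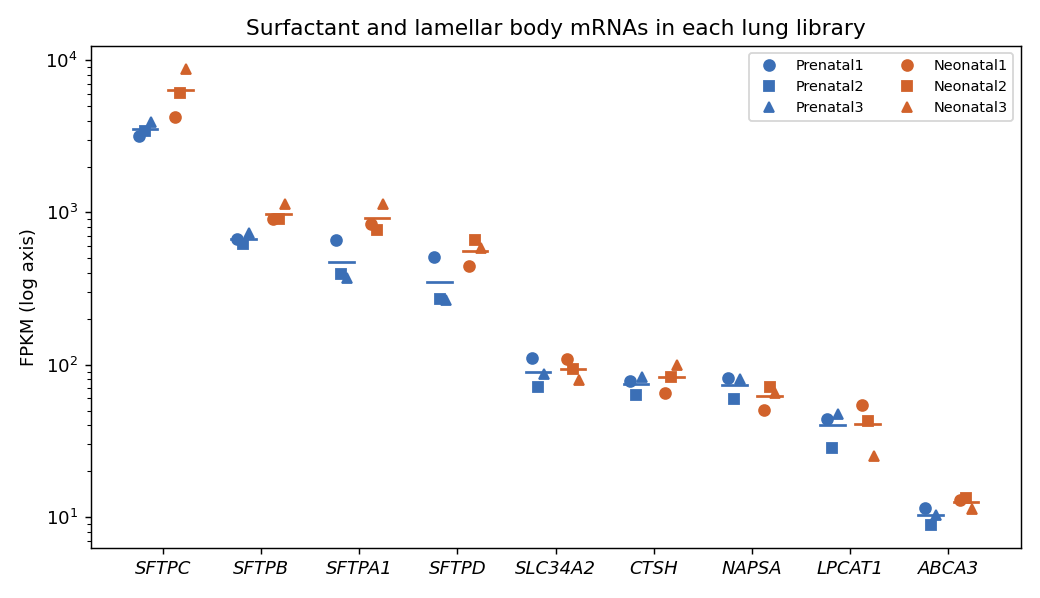
FPKM of the 9 measured genes on a log axis, with 1 point per library, prenatal and neonatal side by side and a line at each group mean. SFTPC lay highest in every library, from 3171 to 8790 FPKM, and ABCA3 lowest, from 8.87 to 13.3 FPKM.

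The hydrophobic proteins came first in level. SFTPC, which inserts into the lipid film and aids its spreading, had 3171, 3450 and 3902 FPKM in Prenatal1, Prenatal2 and Prenatal3 and 4233, 6097 and 8790 FPKM in Neonatal1, Neonatal2 and Neonatal3. It was among the 7 to 11 highest mRNAs of every library by rank. All neonatal libraries stood above all prenatal ones, and the neonatal values were spread more widely, with group means of 3508 ± 369 and 6373 ± 2291 FPKM (SD, n = 3). The difference was 0.80 (SE 0.57, limma adjusted p = 0.429), and its 95% interval of -0.53 to 2.14 held both no change and a change of several fold.

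SFTPB, without which lamellar bodies do not form properly and breathing fails after birth, had 672, 621 and 729 FPKM in the prenatal libraries and 908, 907 and 1130 FPKM in the neonatal libraries. The groups did not overlap. Among the 4 surfactant proteins it varied least within the groups, with means of 674 ± 54.4 and 982 ± 129 FPKM (SD, n = 3). The difference was 0.54 (SE 0.30, limma adjusted p = 0.320, 95% interval -0.17 to 1.25).

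The collectin SFTPA1, the main protein of surfactant by mass and a ligand of alveolar macrophages, had 659, 395 and 371 FPKM before birth and 840, 766 and 1132 FPKM after it. Its groups did not overlap. The means were 475 ± 160 and 913 ± 193 FPKM (SD, n = 3), and the difference of 0.97 (SE 0.35, 95% interval 0.14 to 1.80) had an adjusted p of 0.151 in limma. It was the largest difference of the 9 genes, and its interval was the only one of the 9 that left out 0 for FPKM as deposited. The symbol of SFTPA1, unlike those of the other genes, came from the authors' list of differentially expressed mRNAs. That list was drawn from these same libraries, so the rank of SFTPA1 among the 9 is no independent result.

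SFTPD, the other collectin, had 506, 270 and 266 FPKM in the prenatal libraries and 444, 658 and 583 FPKM in the neonatal libraries. Neonatal1 lay below Prenatal1, so the groups overlapped. The means were 347 ± 138 and 561 ± 109 FPKM (SD, n = 3), with a difference of 0.74 (SE 0.35, limma adjusted p = 0.244, 95% interval -0.08 to 1.56). Both collectins had their highest prenatal value in Prenatal1. In the RefSeq annotation of Sscrofa11.1, SFTPD, the mannose-binding lectin gene MBL1 and SFTPA1 follow one another in that order. Within the prenatal group the log2 ratio of SFTPA1 to SFTPD varied with an SD of 0.0852, while that of SFTPC to SFTPD varied with an SD of 0.659. In the neonatal group the same SDs were 0.415 and 0.394. Such small SDs were not particular to the collectins, since the ratio of SFTPB to SFTPC had an SD of 0.124 in the prenatal group and that of SFTPA1 to SFTPB an SD of 0.122 in the neonatal group.

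ABCA3, the transporter that pumps phospholipid into the lamellar body, had the lowest level of the 9 genes. It had 11.5, 8.87 and 10.3 FPKM in the prenatal libraries and 13.003, 13.256 and 11.201 FPKM in the neonatal libraries, with means of 10.23 ± 1.32 and 12.5 ± 1.12 FPKM (SD, n = 3). The groups overlapped through Neonatal3, which lay below Prenatal1. The difference was 0.27 (SE 0.18, limma adjusted p = 0.394, 95% interval -0.15 to 0.68).

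NAPSA and CTSH are aspartic and cysteine proteases that cut the precursors of SFTPB and SFTPC on their way to the lamellar body. NAPSA had 82.3, 59.3 and 80.4 FPKM in the prenatal libraries and 50.7, 70.9 and 65.6 FPKM in the neonatal libraries. The lowest of its 6 values was in Neonatal1, yet Prenatal2 lay below 2 neonatal libraries and the groups overlapped. Its difference was -0.24 (SE 0.22, limma adjusted p = 0.545, 95% interval -0.77 to 0.28). CTSH had 78.4, 62.9 and 82.4 FPKM before birth and 65.4, 83.1 and 99.3 FPKM after it, and these ranges overlapped too. Its difference was 0.13 (SE 0.23, limma adjusted p = 0.750, 95% interval -0.40 to 0.67).

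LPCAT1, the acyltransferase that makes dipalmitoyl phosphatidylcholine, the main surface-active lipid of surfactant, had 43.7, 28.6 and 47.5 FPKM in the prenatal libraries and 54.2, 42.7 and 25.3 FPKM in the neonatal libraries. Neonatal1 had its highest value and Neonatal3 its lowest, so that the spread within the neonatal group was wider than the distance between the means of 39.9 ± 10.0 and 40.8 ± 14.6 FPKM (SD, n = 3). The difference on the log2 scale, of the opposite sign to that of the means, was -0.0041 (SE 0.32, limma adjusted p = 0.995, 95% interval -0.76 to 0.75). SLC34A2, a sodium-phosphate cotransporter of type II cells that takes up the phosphate freed when surfactant lipid is recycled, had 110, 71.8 and 87.4 FPKM before birth and 108, 94.1 and 78.9 FPKM after it. Its groups overlapped almost fully, with a difference of 0.070 (SE 0.24, limma adjusted p = 0.877, 95% interval -0.48 to 0.62).

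**Figure D2:**
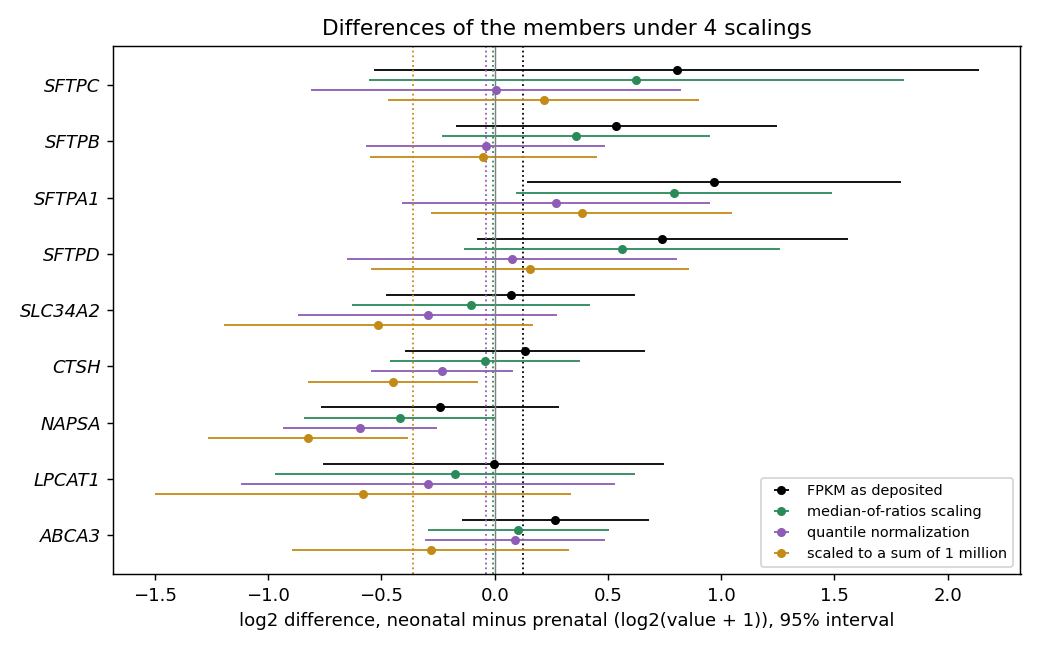
Difference of each measured gene, neonatal minus prenatal on the log2 scale, as a point with its 95% interval from limma for each of 4 scalings between libraries. Dotted lines mark the median over all mRNAs under the scaling of the same colour. SFTPA1 stood at 0.97 as deposited and 0.27 after quantile normalization, and NAPSA lay below 0 under all 4 scalings.

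The direction of the smaller differences depended on how the libraries were scaled. The median difference over all mRNAs was 0.13 for FPKM as deposited, -0.0090 after median-of-ratios scaling, -0.038 after quantile normalization and -0.36 after scaling to the same sum (a fixed sum). SFTPA1, SFTPC and SFTPD had positive differences under all 4 scalings, down to 0.27, 0.0043 and 0.077 after quantile normalization. SFTPB turned to -0.040 after quantile normalization and to -0.050 at a fixed sum, and ABCA3 turned to -0.28 at a fixed sum. SLC34A2 and CTSH were positive only for FPKM as deposited, and with the other 3 scalings lay between -0.51 and -0.11 and between -0.45 and -0.042. LPCAT1 was negative under all 4, from -0.58 to -0.0041. NAPSA was negative under all 4 as well and, at a fixed sum, its difference of -0.83 passed the threshold (limma adjusted p = 0.0433). It was the 1 of the 9 called there, and 5.1% of all mRNAs were called lower with that scaling. Relative to the median of all mRNAs under the same scaling, SFTPA1 stood at 0.84, 0.80, 0.31 and 0.74 in the order given above, and NAPSA at -0.37, -0.41, -0.56 and -0.47.

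The order of the mean levels was the same in both groups, from SFTPC through SFTPB, SFTPA1, SFTPD, SLC34A2, CTSH, NAPSA and LPCAT1 to ABCA3. SFTPC stood 5.204 times above SFTPB before birth and 6.49 times above it after birth, without overlap between their libraries. SFTPB and SFTPA1 overlapped in both groups, and SFTPA1 and SFTPD overlapped in the prenatal group and were apart in the neonatal group. The step from the surfactant proteins to the other genes, from SFTPD to SLC34A2, was 3.86 times before birth and 5.99 times after it. SLC34A2 and CTSH overlapped in both groups, and so did CTSH and NAPSA, while SLC34A2 and NAPSA were apart in the neonatal group, at 78.9 to 108 and 50.7 to 70.9 FPKM. NAPSA and LPCAT1 were apart only in the prenatal group, and LPCAT1 stood 3.90 and 3.26 times above ABCA3. These steps are ratios of mean FPKM and, being described after the levels were seen, carry no test.

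**Figure D3:**
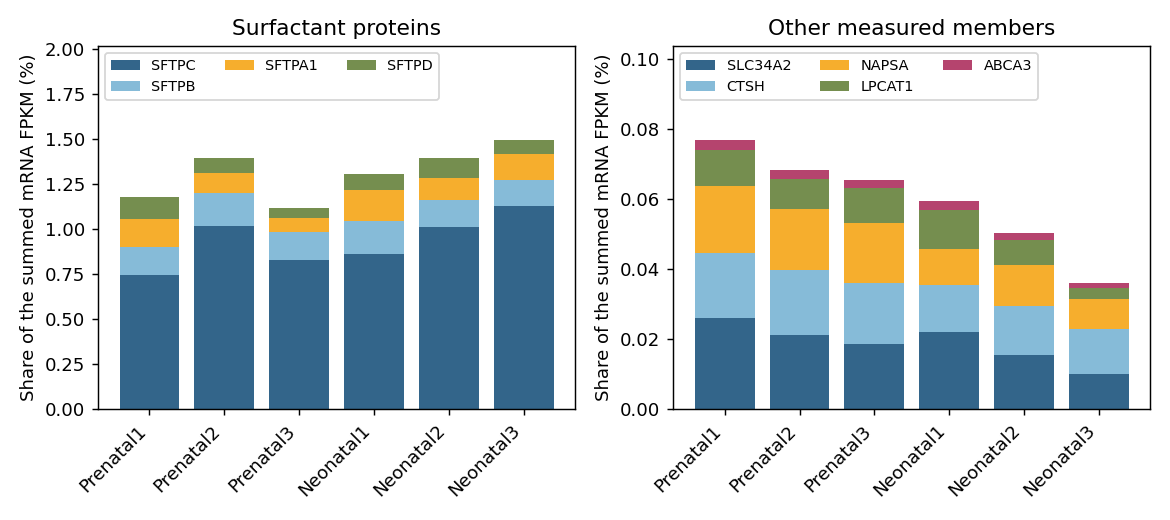
Stacked bars of the share of the summed mRNA FPKM of each library, in percent, taken by the 4 surfactant proteins (left) and by the other 5 measured genes (right, on a finer axis). The left stacks ran from 1.118% to 1.496%, of which SFTPC alone took 0.746% to 1.13%, and the right stacks from 0.0360% to 0.0767%.

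As a share of the summed mRNA FPKM of its library, which amounts to scaling every library to the same sum, the 9 genes together took 1.25%, 1.46% and 1.18% in the prenatal libraries and 1.37%, 1.45% and 1.53% in the neonatal libraries. These ranges overlapped, with means of 1.30% ± 0.145 and 1.45% ± 0.0826 (SD, n = 3). The 4 surfactant proteins took 1.23% and 1.40% on average, and nearly all of the total. The other 5 genes took 0.0767%, 0.0682% and 0.0654% before birth and 0.0593%, 0.0504% and 0.0360% after it, with no overlap between the groups. How often other sets of 5 mRNAs do so was not computed, and 27.2% of single mRNAs did. Among single genes, the shares of NAPSA and CTSH were lower in every neonatal library than in every prenatal one, which is 2 of 9 beside 27.2% of all mRNAs. NAPSA took 0.0194%, 0.0175% and 0.0171% before birth and 0.0103%, 0.0117% and 0.00843% after it. CTSH took 0.0184%, 0.0185% and 0.0175% and then 0.0133%, 0.0138% and 0.0128%. None of the 9 shares was higher without overlap, beside 7.04% of all mRNAs. With the 100 highest other mRNAs left out of the sum, the difference of the whole share was 0.625 percentage points in place of 0.148. The smaller sum makes the share of the members larger in every library, so the 2 differences do not compare in size.

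Ratios within a library asked whether the 4 surfactant proteins differed from each other in their change. All 6 pairs were compared, and none differed between the groups by an exact two-sided permutation test, in which 3 against 3 libraries cannot give a p below 0.1. The log2 ratio of SFTPA1 to SFTPB was -0.029, -0.65 and -0.97 in the prenatal libraries and -0.11, -0.24 and 0.0021 in the neonatal libraries. That was the largest of the 6 differences, at 0.43 (exact permutation p = 0.3, adjusted p = 0.72 over 6 pairs). The ratio of SFTPC to SFTPD differed least, by 0.060 (exact permutation p = 0.9, adjusted p = 0.9), with means of 3.40 ± 0.659 and 3.46 ± 0.394 (SD, n = 3). The other 4 differences lay between -0.27 and 0.23. These tests do not show that the 4 genes changed alike, since the SDs of the ratios within a group reached 0.659.

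**Figure D4:**
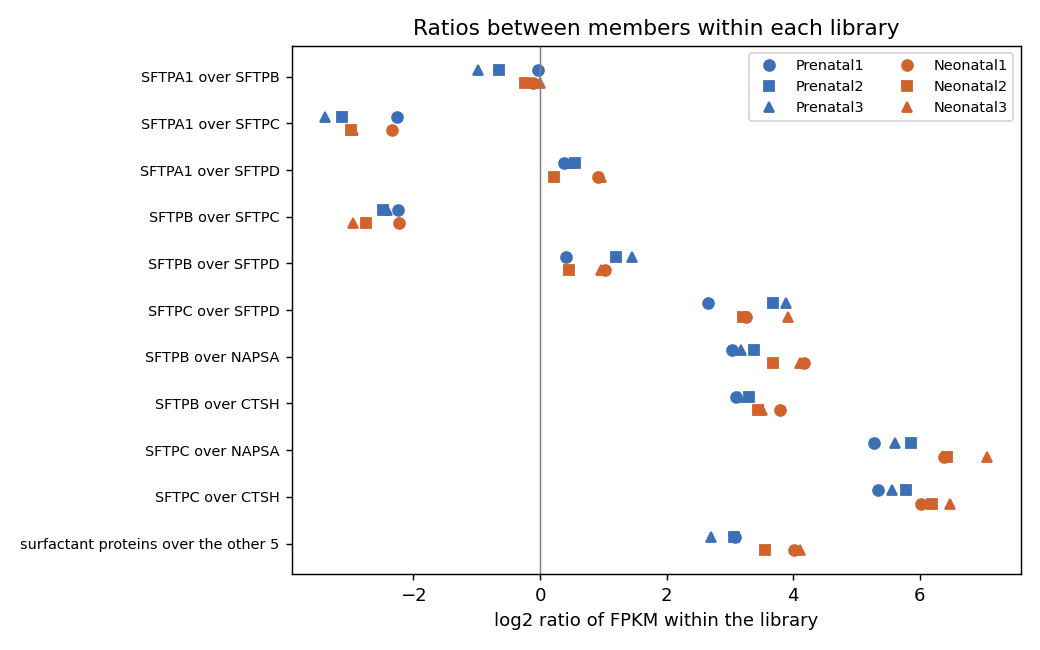
Within-library log2 ratios of FPKM, with 1 point per library, for the 6 pairs of surfactant proteins, for SFTPB and SFTPC over the proteases NAPSA and CTSH, and for the median of the surfactant proteins over that of the other 5 measured genes. The last of these lay between 2.69 and 3.09 in the prenatal libraries and between 3.56 and 4.11 in the neonatal libraries.

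Set against the other 5 genes, the surfactant proteins were higher after birth in every library. The median log2 FPKM of the 4 minus that of the 5 was 3.09, 3.06 and 2.69 in the prenatal libraries and 4.01, 3.56 and 4.11 in the neonatal libraries, a difference of 0.94 between means of 2.95 ± 0.219 and 3.89 ± 0.295 (SD, n = 3). The ratio was chosen after the values were seen and is given without a test. How often medians of other sets of 4 and 5 mRNAs separate in this way was not computed. The log2 ratio of SFTPB to NAPSA was 3.03, 3.39 and 3.18 before birth and 4.16, 3.68 and 4.11 after it. That of SFTPB to CTSH was 3.10, 3.30 and 3.14 and then 3.80, 3.45 and 3.51. Both ratios stood higher in all neonatal libraries, as did 31.8% of the ratios of SFTPB to each other mRNA. For SFTPC the ratio to NAPSA was 5.27, 5.86 and 5.60 before birth and 6.38, 6.43 and 7.07 after it, and the ratio to CTSH was 5.34, 5.78 and 5.56 and then 6.02, 6.20 and 6.47. These did not overlap either, beside 34.9% of the ratios of SFTPC to each other mRNA. In these animals SFTPB and SFTPC mRNA thus stood higher relative to NAPSA and CTSH mRNA on day 2 than before birth. The same held relative to many other mRNAs. No other protease was set against them singly.

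The animals of a group differed among themselves, and the genes did not all follow the same order. Prenatal2 had the lowest prenatal value for 6 of the 9 genes, beside 40.0% of all mRNAs, and the lowest summed FPKM. Neonatal3 had the highest neonatal value for SFTPA1, SFTPB, SFTPC and CTSH, 4 of the 9 beside 43.8% of all mRNAs, and the highest summed FPKM, but also the lowest neonatal value for ABCA3, LPCAT1 and SLC34A2. Leaving out each library in turn called none of the 9 genes, and the difference of SFTPA1 then ranged from 0.80 to 1.23.

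**Figure D5:**
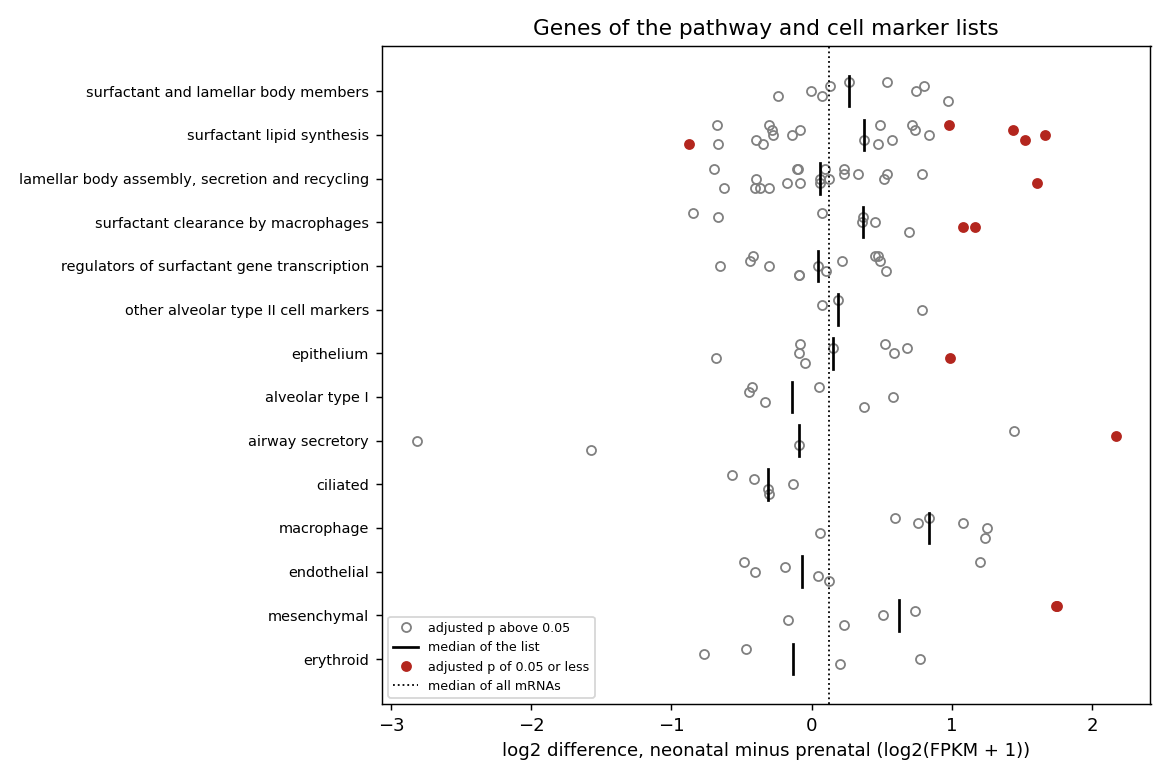
Difference of every measured gene of each pathway and marker list, neonatal minus prenatal on the log2(FPKM + 1) scale, with filled points for genes past the threshold a bar at the list median and a dotted line at the median of all mRNAs. The 9 surfactant and lamellar body genes lay between -0.24 and 0.97 with none past the threshold, whereas CKAP4 stood at 1.61 and CHPT1 at -0.88.

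The genes that make, store and clear surfactant lipid were read from lists. A gene without a symbol in the gene name table could be measured only if on the authors' list of differentially expressed mRNAs. Counts of calls in these and the marker lists are therefore not free of selection on these same libraries. Of the 29 listed genes of surfactant lipid synthesis 21 were measured, of which 4 rose and 1 fell past the threshold, with 11 positive differences and a median of 0.38. Over all mRNAs 5.41% rose and 1.45% fell past it, with a median of 0.13. The list median was the value of MFSD2A, at 0 FPKM in every prenatal library and 0.127, 0.860 and 0.0412 FPKM in the neonatal ones. MFSD2A and PCYT1B exceeded 0.5 FPKM, the limit for entering the table, only in neonatal libraries. Their positive differences were thus selected by that limit, and the list median is no result about the list. The median without them was not computed. FADS1 and FADS2, the desaturases that make long polyunsaturated fatty acids, rose from 3.20 ± 0.852 to 12.2 ± 1.72 FPKM (1.66, limma adjusted p = 0.00795) and from 3.94 ± 1.55 to 12.7 ± 0.836 FPKM (1.52, adjusted p = 0.0180). PLIN2, a coat protein of lipid droplets, rose from 4.30 ± 1.12 to 13.1 ± 1.06 FPKM (1.43, limma adjusted p = 0.0109), and SREBF2, a regulator of sterol synthesis, from 13.3 ± 2.98 to 27.0 ± 4.40 FPKM (0.98, adjusted p = 0.0400). CHPT1, which makes the last step of phosphatidylcholine synthesis, fell from 32.0, 28.4 and 27.6 FPKM to 16.7, 16.1 and 13.8 FPKM (-0.88, limma adjusted p = 0.0263).

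Most of these calls were lost when some libraries were left out, which also cut the calls over all mRNAs from 1001 to as few as 196. That of FADS1 held when any 1 library was left out. That of FADS2 was lost without Prenatal2, Prenatal3, Neonatal2 or Neonatal3 (limma adjusted p up to 0.0839), that of PLIN2 without Prenatal2, Neonatal2 or Neonatal3 (up to 0.0585), that of CHPT1 without any 1 but Neonatal1 (up to 0.1001), and that of SREBF2 without any 1 of the 6 (up to 0.129). At a fixed sum FADS1, FADS2, PLIN2 and SREBF2 had limma adjusted p of 0.0547, 0.0572, 0.0516 and 0.435, so none was called. SREBF2 was also not called after median-of-ratios scaling (limma adjusted p = 0.0913) or quantile normalization (adjusted p = 0.132), and held its call in 4 of 8 other settings.

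Of the 30 listed genes of lamellar body assembly, secretion and recycling 21 were measured, with 11 positive differences, a median of 0.057 and 1 call. The call was CKAP4, a membrane protein described as a receptor for SFTPA1 on type II cells, which rose from 8.85, 10.5 and 9.41 FPKM to 29.5, 31.4 and 33.0 FPKM (1.61, SE 0.16, limma adjusted p = 0.00373). It kept its call under all 8 other settings and with each library left out. CKAP4 is also an abundant protein of the endoplasmic reticulum in many cell types. The remaining 20 genes, among them the complexes that sort cargo to lysosome-related organelles, did not pass. Over all mRNAs 6.87% passed.

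Of 12 listed genes with which macrophages clear surfactant 9 were measured, 7 of them with positive differences, and the median was 0.36. Past the threshold 2 of the 9 rose, beside 5.41% of all mRNAs. In 4 of the 9 every neonatal library stood above every prenatal one, beside 20.9% of all mRNAs, and in 2 below, beside 9.64%. The 2 that stood below, named after their values were seen, were ABCA1 (-0.85, limma adjusted p = 0.0654) and ABCG1 (-0.67, adjusted p = 0.168). SPI1, the macrophage transcription factor PU.1, rose from 14.03 ± 2.44 to 33.0 ± 7.98 FPKM (1.16, limma adjusted p = 0.0329), and CSF2RB, a chain of the receptor for the growth factor that drives alveolar macrophage maturation, from 2.43 ± 0.477 to 6.23 ± 0.731 FPKM (1.08, adjusted p = 0.0225). The call of SPI1 was lost without any 1 library but Neonatal1 (limma adjusted p up to 0.137) and that of CSF2RB without any 1 of the 6 (up to 0.0945), and at a fixed sum neither was called. Beside them, all 7 measured of 11 macrophage markers had positive differences with a median of 0.84 and none past the threshold, and their summed level ran from 403 to 940 FPKM before birth and from 675 to 1592 FPKM after it. CD68 stood at 1.25 (limma adjusted p = 0.0506) and CSF1R at 0.057, the latter turning negative under the other 3 scalings. The part of macrophage number in these changes was not tested.

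Of 18 listed regulators of surfactant gene transcription 13 were measured, with 7 positive differences, a median of 0.045 and none past the threshold. At an unadjusted p under 0.05 limma gave 2 of the 13, beside 24.2% of all mRNAs. THRB, a thyroid hormone receptor, had the lowest difference, from 5.64 ± 0.601 to 3.22 ± 0.291 FPKM (-0.65, limma adjusted p = 0.0766), and passed the threshold under the other 3 scalings, with adjusted p of 0.0412 after median-of-ratios scaling, 0.0387 after quantile normalization and 0.0328 at a fixed sum. RARA, a retinoic acid receptor, had the highest, from 24.2 ± 5.09 to 35.1 ± 4.81 FPKM (0.53, adjusted p = 0.180), and stood at -0.040 at a fixed sum. NKX2-1, the main lung-lineage transcription factor, was not analysed here.

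The labelled tissue was checked against its markers. SFTPC, SFTPB, NAPSA and ABCA3, used here as markers of type II cells, were present in all 6 libraries. Every mRNA of the table exceeded 0.5 FPKM in at least 1 sample. That no measured marker of any list was at 0 in all libraries was therefore fixed in advance and checks nothing. In whole lung, a change in the number of cells that hold these mRNAs, of type II or another kind, and a change in the RNA of each cell cannot be told apart. Of the 8 other type II markers 3 were measured, all with positive differences and none past the threshold, and their sum ran from 121 to 145 FPKM before birth and from 120 to 194 FPKM after it. PGC, pepsinogen C, had 3.26, 3.28 and 2.45 FPKM and then 6.18, 5.10 and 6.39 FPKM (0.79, limma adjusted p = 0.0546), and HHIP stood at 0.076 and turned negative under the other 3 scalings.

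Of 13 general epithelial markers 9 were measured, with a median of 0.15, and their sum ran from 365 to 404 FPKM before birth and from 440 to 605 FPKM after it. ST14, the membrane protease matriptase, rose from 10.9 ± 1.29 to 22.9 ± 5.46 FPKM (0.98, limma adjusted p = 0.0365), a call lost when any 1 library was left out (up to 0.116) and at a fixed sum (0.44, adjusted p = 0.267). EPCAM, an epithelial adhesion molecule named after its values were seen, had 48.5, 46.4 and 44.6 FPKM before birth and 31.6, 19.9 and 36.7 FPKM after it (-0.69, limma adjusted p = 0.144), and 4 of the 9 had negative differences. The 6 measured of 10 type I markers had a median of -0.14, no call and sums of 849 to 1260 and 729 to 1346 FPKM, with AQP5 highest at 0.58 and AKAP5 lowest at -0.45. The 5 measured of 8 ciliated markers were all negative with a median of -0.31, no call and sums of 60.2 to 113 and 61.9 to 70.5 FPKM, from DNAH9 at -0.13 to CAPS at -0.57. Of 8 airway secretory markers 5 were measured, with a median of -0.094 and sums of 2425 to 7165 and 1215 to 3392 FPKM. BPIFB1, a secreted lipid-binding protein of the airway, rose from 1.70 ± 1.29 to 10.5 ± 2.46 FPKM (2.17, limma adjusted p = 0.0149), a call lost without Prenatal1, Prenatal3, Neonatal2 or Neonatal3 (up to 0.0783) and at a fixed sum (adjusted p = 0.0521). The other 4 did not pass, and 3 of the 5 were negative. The club cell secretory proteins SCGB1A1 and SCGB3A2, named after their values were seen, stood at -2.82 and -1.57 (limma adjusted p = 0.265 and 0.213). SCGB1A1 had 139, 119 and 99.8 FPKM before birth and 62.2, 0.213 and 62.0 FPKM after it.

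Among markers of other compartments, the 6 measured of 8 mesenchymal ones had a median of 0.62, and their sum ran from 1143 to 1523 FPKM before birth and from 2039 to 2902 FPKM after it. ACTA2 and TAGLN, contractile proteins of smooth muscle and myofibroblasts, rose from 116 ± 29.3 to 383 ± 50.2 FPKM (1.74, limma adjusted p = 0.0138) and from 252 ± 54.5 to 869 ± 280 FPKM (1.75, adjusted p = 0.0317). The call of ACTA2 was lost without Prenatal1, Prenatal2, Neonatal2 or Neonatal3 (limma adjusted p up to 0.0682) and that of TAGLN without any 1 library but Neonatal1 (up to 0.137). The 6 measured of 8 endothelial markers had a median of -0.073, no call and sums of 466 to 571 and 632 to 908 FPKM, from TEK at -0.48 to CLDN5 at 1.197 (limma adjusted p = 0.0585). The higher sum was carried by CLDN5, with means of 229 ± 33.6 and 537 ± 138 FPKM (SD, n = 3), while 3 of the 6 differences were negative. TEK passed the threshold at a fixed sum (-1.06, limma adjusted p = 0.0491), and CLDN5 passed it in 2 of 8 other settings. The 4 measured of 6 erythroid markers had a median of -0.13, no call and sums of 1260 to 2700 and 967 to 1535 FPKM, from HBB at -0.77 to HBM at 0.78. HBB passed the threshold after quantile normalization (limma adjusted p = 0.0260) and at a fixed sum (-1.35, adjusted p = 0.0278). The part of these cell types in the levels of the surfactant genes was not tested.

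The 9 genes did not share 1 profile over the libraries. After subtraction of its own mean, each gene lay from 0.136, for SFTPB, to 0.443, for LPCAT1, from the median profile of the 9, as a root mean square on the log2(FPKM + 1) scale over 6 libraries. Among 9555 other mRNAs with a symbol and a comparable range, the nearest to that median profile were SF3B2, MMGT1, GAB3, RAB7A and AGPS, at 0.0399 to 0.0653. None of these 5 passed the threshold, and their differences lay between 0.37 and 0.46.

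One long noncoding RNA was paired with a member. Among the 1998 lncRNAs whose class could be read here, TU105673 was listed as antisense to SLC34A2, at chromosome 8, 19823094 to 19847984 on the minus strand of Sscrofa10.2. It had 0.130, 0.0339 and 0.217 FPKM in the prenatal libraries and 1.48, 2.18 and 1.57 FPKM in the neonatal libraries, without overlap, as for 4.57% of all 19310 lncRNAs in that direction. The means were 0.127 ± 0.0918 and 1.74 ± 0.382 FPKM (SD, n = 3). Its difference was 1.28 (SE 0.37) and did not pass the threshold over all lncRNAs (limma adjusted p = 0.484), at which 0.00518% of them, a single lncRNA, were called. The libraries were stranded and mapped with that setting, and SLC34A2 itself had overlapping groups. Whether sense reads of SLC34A2, at 71.8 to 110 FPKM, add to the level of TU105673 was not tested.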

How the data were processed

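Whole lung RNA of 3 prenatal and 3 neonatal piglets was sequenced from strand-specific Ribo-Zero libraries. Per the study's methods and the submitters' processing notes, reads were mapped to Sscrofa10.2 with TopHat 2.1.0, lncRNAs were assembled with StringTie 1.2.2, and the deposited values are FPKM that the authors computed with Cufflinks 2.2.1. All 14579 deposited mRNAs exceeded 0.5 FPKM in at least 1 sample. Read counts are not part of the tables, and no counting error was attached. The 12 value columns were matched to samples by name, and 0 were left unmatched. Symbols came from a gene name table for 9478 mRNAs and, for 362, from the study's supplementary list of differentially expressed mRNAs. Presence in that list thus decided which of the latter could be matched to a symbol, SFTPA1 among them. Genes of the pathway and marker lists were matched with the same symbols, and which of them rested on that list is not given here. The fold changes and p-values of the authors in that list were not used.

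Differences in log2(FPKM + 1) were modelled over all mRNAs with limma 3.58.1 under R 4.3.3, using a variance trend, in place of the authors' Cuffdiff, which needs reads. A pseudocount of 1 understates the change of low genes. Ratios were tested by exact permutation in scipy 1.17.1. The fit was tested on simulated data, where 6 of the unchanged mRNAs were called beside 148 of 200 changed by 2, and 8 beside 189 of 200 changed by 4. Members and lists were chosen with earlier results of these data known. Beside the members, the text names every gene of a list past the threshold, up to 6, or its highest and lowest where none passed, and the 5 mRNAs nearest to the median profile. EPCAM, SCGB1A1, SCGB3A2, MFSD2A, PCYT1B, ABCA1 and ABCG1 were named outside this rule, after their values were seen. Alternatives were pseudocounts of 0.5 and 0.1, median-of-ratios, quantile and fixed-sum scaling, only mRNAs with over 1 FPKM in 3 or more samples, no variance trend, a replicate block, and each library left out. The ratios to other members and the lncRNA fit were added after seeing the data. Promoters were not analysed here.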

Additional observations from a re-analysis of the deposited data

Results flagged for a closer look

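TU105673, the lncRNA listed as antisense to SLC34A2, lies outside the mRNA table on which the comparisons rest and stood higher in all 3 neonatal libraries than in all 3 prenatal ones, by 1.28 on the log2(FPKM + 1) scale (limma adjusted p = 0.484 over 19310 lncRNAs). Its levels of 0.0339 to 2.18 FPKM are low, so the size of the difference depended on the pseudocount and was 1.84 with 0.5 and 3.09 with 0.1 in place of 1, with adjusted p of 0.428 and 0.439. It ranged from 1.17 to 1.346 when 1 library was left out, and did not pass the threshold in any of these fits.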

How the results depend on the processing

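No member's difference passed the threshold under any alternative, except NAPSA at a fixed sum, which made the count of members called lower 1. The direction of members turned at a fixed sum for SFTPB (-0.050), ABCA3 (-0.28), SLC34A2 (-0.51) and CTSH (-0.45), after quantile normalization for SFTPB (-0.040), SLC34A2 (-0.30) and CTSH (-0.23), and after median-of-ratios scaling for SLC34A2 (-0.11) and CTSH (-0.042). With 1 library left out, LPCAT1 ranged from -0.24 to 0.30, SLC34A2 from -0.079 to 0.23 and CTSH from -0.0075 to 0.29. Of the named list genes, RARA turned at a fixed sum (-0.040), HHIP after median-of-ratios (-0.10), fixed-sum (-0.50) and quantile (-0.19) scaling, and CSF1R likewise (-0.085, -0.46, -0.071), and with 1 library left out HHIP ranged from -0.085 to 0.24 and CSF1R from -0.14 to 0.32. The share of all members differed by 0.148 percentage points, by 0.625 when the 100 highest other mRNAs were left out of the sum, and by 0.0893 to 0.229 with 1 library left out. The 0.625 rests on a smaller sum, in which the share of the members is larger in every library. With 1 library left out, the differences in log2 ratio ranged from -0.064 to 0.50 for SFTPA1 over SFTPC, from -0.51 to 0.012 for SFTPB over SFTPD and from -0.32 to 0.30 for SFTPC over SFTPD.

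Counts of all mRNAs called higher were 306 at a fixed sum and 163 to 785 with 1 library left out, and counts called lower were 335 after median-of-ratios, 743 at a fixed sum, 486 after quantile normalization and 33 to 159 with 1 library left out. For lipid synthesis, higher calls were 0 at a fixed sum and 1 to 4 with 1 library left out, and lower calls were 5 at a fixed sum, 2 after quantile normalization and 0 to 1 with 1 library left out. For lamellar body assembly, lower calls were 2 at a fixed sum, 1 after quantile normalization and 0 to 1 with 1 library left out. For clearance, higher calls were 0 at a fixed sum and 0 to 1 with 1 library left out, and lower calls were 1, 2 and 1 after median-of-ratios, fixed-sum and quantile scaling. For regulators, lower calls were 1, 2 and 2 in that order. The cause of these moves was not tested.

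The replicate numbers of the 2 groups are only shared numbers. Deviations of same-numbered libraries from their group means had correlations of -0.041, -0.0043 and 0.00047 across mRNAs. With replicate number as a block, 336 mRNAs were called higher and 65 lower, and calls of lipid synthesis were 3 higher and 0 lower and of clearance 0 higher. No member was called with the block.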
